A study of Saccharomyces cerevisiae with 18 samples.

Results

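The histone genes of budding yeast were followed through spore germination. The set holds 10 genes, matched in the annotation of the arrays by symbol (HTZ1 by its locus tag, YOL012C), of the 6218 genes measured on both array layouts. It consists of the 8 core histone genes (HTA1, HTA2, HTB1, HTB2, HHT1, HHT2, HHF1 and HHF2), the H2A variant gene HTZ1, which the files annotate under its older name HTA3, and the linker histone gene HHO1. All 10 genes had a value in each of the 18 groups. The spores came from Y55, a diploid strain, and were germinated either in YPD (yeast extract, peptone and glucose, a rich medium) or in 2% glucose with no other nutrient. Samples were taken at 9 times between 0 and 128 min. Each spotted array carried a time point labelled with Cy5 beside dormant-spore RNA labelled with Cy3, so each value is the log2 ratio of that time point over dormant spores. Every group had 3 arrays, except glucose at 0 min with 2. The study's methods call the arrays of a group biological replicates and independent experiments, and the labels mention scan replicates as well.

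Core histones package DNA in nucleosomes, with H2A and H2B forming one kind of dimer and H3 and H4 another. In budding yeast each core histone is encoded by a pair of genes, and each gene lies next to a partner that is read in the opposite direction. HTA1 and HTA2 encode H2A and lie beside HTB1 (chromosome IV) and HTB2 (chromosome II), which encode H2B. HHT1 and HHT2 encode identical H3 proteins and lie beside HHF1 (chromosome II) and HHF2 (chromosome XIV), which encode identical H4 proteins. In growing cells the core genes are transcribed as DNA is replicated, and the HIR corepressor holds most of them down outside that window. HTZ1 (chromosome XV) encodes H2A.Z, which the SWR1 complex places in nucleosomes near transcription start sites, and HHO1 (chromosome XVI) encodes the linker histone H1, which binds the DNA between nucleosomes.

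The data quality sets limits on these genes. Of 1060 spot positions of the 10 genes on the 53 arrays, 93 were flagged as poor or by hand and left out, and 11 array values were missing as a result. Keeping the flagged spots moved a group mean by at most 0.235 on the log2 scale, for HHF2. A gene counted as above background on an array when the signal of a spot that was not left out passed the local background by 2 SD. An array with all spots of the gene left out counted as not above. HHT1, HHT2 and HTB2 did so on all 53 arrays in both dyes. HTA1 did so on 49 arrays in Cy5 but on 34 in Cy3. HTZ1 was the dimmest, with 34 arrays in Cy5 and 25 in Cy3. The arrays of a group correlated over all genes with an r between 0.066 and 0.943, so some arrays stood far from others of their group. As a check of the labelled material, SPS100, a spore wall gene, fell by 6.75 on the log2 scale in YPD at 64 min against 0 min. At that time 6 of 16 spore genes on a list were called lower and 1 higher, and of 7 genes listed for vegetative growth 1 was called lower and 3 higher. Over all genes 28.5% were called lower and 23.0% higher. The lower growth gene was CDC19, the pyruvate kinase of glycolysis (-4.14), with a value on only 1 array of 0 min. Only 1 of these 16 genes was counted as above background in Cy3 on more than 45 arrays. Arrays with left-out spots lower this count, and SPS100 had 36 although its median Cy3 percentile was 99.6. The probe sequences were not known, so signal shared between near-identical copies was not tested.

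The dormant-spore reference of the histone genes differed between days of image quantification, and these values stand beside every comparison with 0 min. On the 9 arrays quantified on the first 2 of 13 days, HTA1 in Cy3 lay between percentiles 63.5 and 84.8 of all genes on the array (median 71.4). On the other 44 arrays it lay between percentiles 13.8 and 39.0 (median 24.4), so the 2 sets of arrays did not overlap. HTA2 ran the opposite way, with a median percentile of 34.7 on the first set and 71.7 on the second. The reference medians of HTB2 (75.0 and 94.5), HHF2 (43.4 and 71.6), HHF1 (68.3 and 90.4), HHT1 (82.5 and 97.0) and HHT2 (87.9 and 96.2) were also lower on the first set. HTB1 ran the way of HTA1, at 74.9 and 59.1. The first set held all YPD arrays of 0 and 8 min and 3 glucose arrays, 1 each of 0, 4 and 8 min. In the Cy5 channel, HTA1 lay at percentiles 75.6 to 82.8 in YPD at 128 min and at 68.3 to 79.1 in YPD at 0 min, and these ranges overlapped. What the change in the reference contributed to differences from 0 min was not tested. In YPD only the 8 min arrays shared a day with arrays of 0 min, and those of 16 min shared a day with those of 4 min, so values within 1 day are given between 16 and 4 min.

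**Figure D1:**
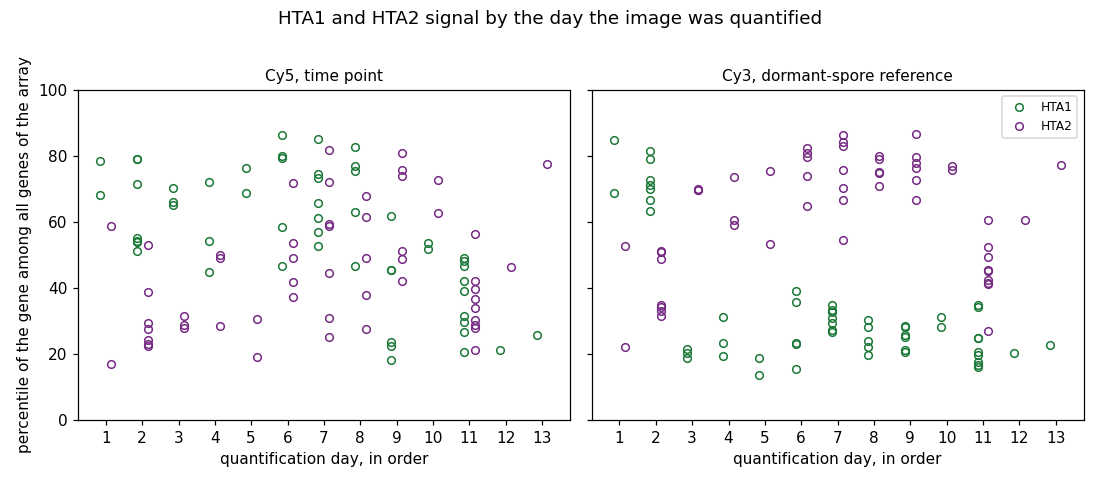
Percentile of HTA1 and HTA2 among all genes of an array (y axis, 0 to 100) by the day on which the image was quantified (x axis, in order), for the time point in Cy5 (left) and the dormant-spore reference in Cy3 (right), with 1 circle per array. In the reference, HTA1 lies at 63.5 or above on the first 2 days and at 39.0 or below afterwards.

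In YPD the core genes did not move together. As log2 ratios over the dormant-spore reference, HTA1 rose, and its H2A copy HTA2, both H2B genes, both H3 genes and HHF1 fell. HHF2 was not called at any time. The Cy5 percentiles, given above for HTA1, did not all move the way of these ratios. Their means in YPD at 0 and 128 min were 50.2 and 38.2 for HTA2, and 83.7 and 62.2 for HTB1. They were not lower at 128 min for HTB2 (80.9 and 81.3), HHT1 (71.2 and 82.2) and HHT2 (75.3 and 77.7). HHF1 lay between 37.7 and 65.8 at 0 min and between 46.7 and 76.6 at 128 min, which overlap. For HHF2 the means were 35.5 and 81.5. What the reference contributed to these ratios was not tested. Over the 8 later times, 6 of 80 gene-by-time combinations of the histone genes were called higher than 0 min and 41 lower, at a limma adjusted p below 0.05. Over all genes, 18.2% of combinations were called higher and 21.2% lower. All 6 calls of a rise belonged to HTA1. The median difference of the 10 genes was -1.07 at 128 min, against -0.04 over all genes. When the 8 differences of a gene were tested together by a moderated F test, 9 of the 10 genes passed (79.6% of all genes did), and HHF2 had an adjusted p of 0.098. A lower ratio in every spore and a smaller share of spores holding the transcript cannot be told apart in these bulk samples.

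**Figure D2:**
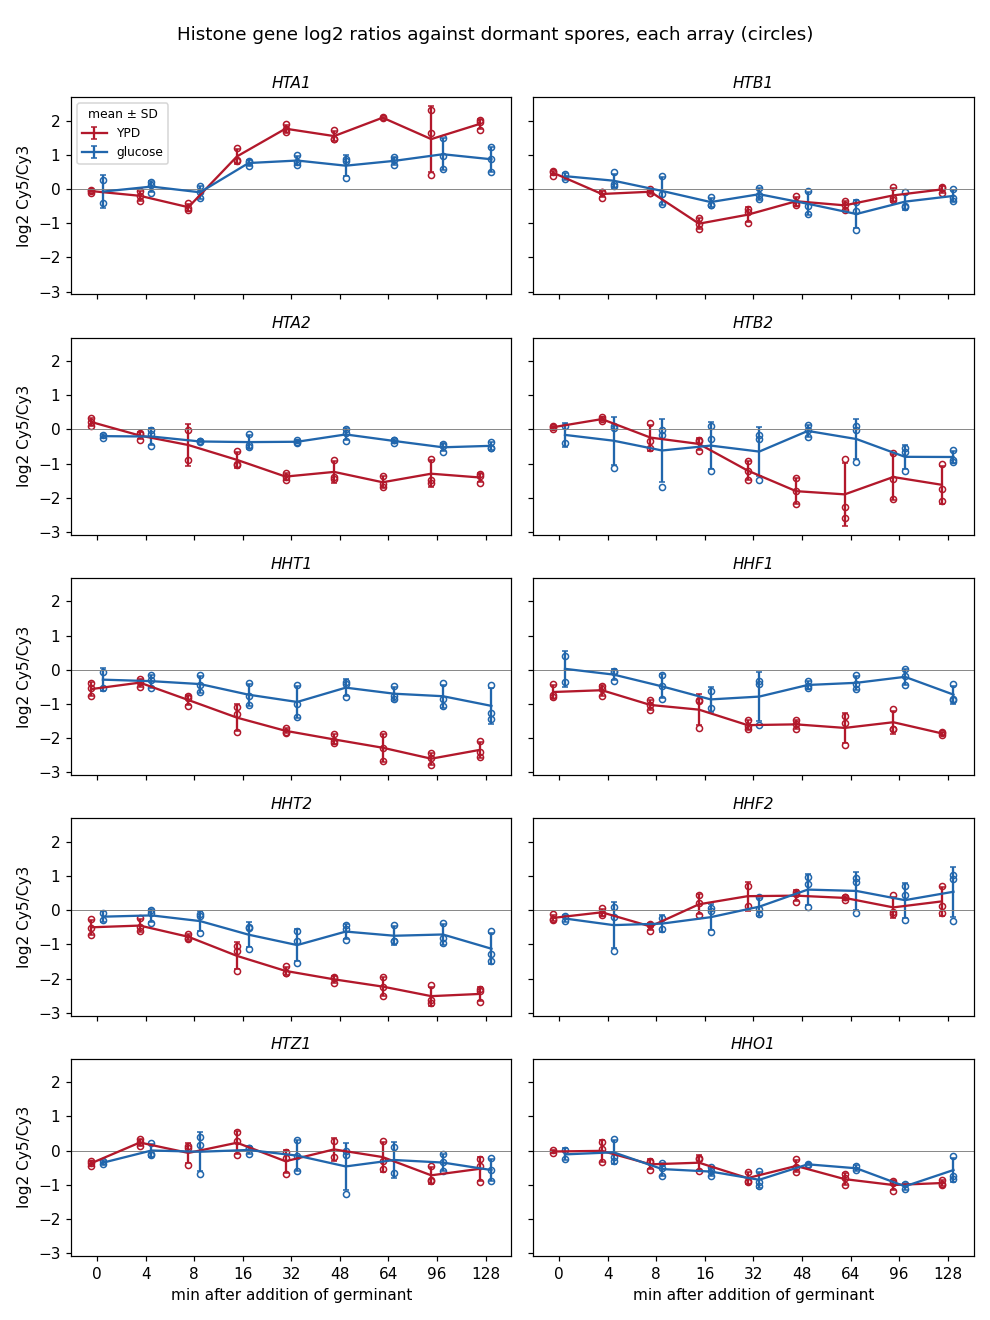
Log2 ratio of each histone gene over the dormant-spore reference (y axis) by minutes after addition of the germinant (x axis), in YPD (red) and glucose (blue), with 1 circle per array and lines through the means with bars of 1 SD (n = 3 arrays, 2 for glucose at 0 min, fewer where spots were flagged). HTA1 is above 0 on all arrays from 16 min on in both media, and HHT1 and HHT2 are below 0 on all arrays from 32 min on.

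HTA1, 1 of the pair of H2A genes, was the histone gene with the largest rise. Its log2 ratio in YPD was -0.05, -0.10 and -0.02 on the 3 arrays of 0 min, -0.05, -0.19 and -0.35 at 4 min and -0.41, -0.62 and -0.57 at 8 min. It was 0.85, 1.20 and 0.81 at 16 min, 1.74, 1.66 and 1.89 at 32 min, and 1.46, 1.73 and 1.46 at 48 min. It was 2.07 and 2.11 on the 2 arrays with a usable spot at 64 min, 1.65, 0.41 and 2.32 at 96 min, and 2.02, 1.73 and 1.96 at 128 min. Every array from 16 min on was above every array of 0 to 8 min, and 1 array of 96 min (replicate 2) was far below the other two. The rise over 0 min was 1.01 at 16 min (SE 0.26, adjusted p = 0.0012), 2.15 at 64 min (SE 0.29, adjusted p = 4.9e-08), a fold of 4.43, and 1.96 at 128 min (SE 0.26, adjusted p = 3.9e-08). On the array of 64 min whose spots were both flagged, the ratio with those spots was 1.68. The dormant-spore signal of HTA1 was not above background on any array of 16 or 96 min. Its measured Cy5 signal there was 1.94-fold and 2.75-fold higher than the reference. These are the measured ratios over a reference not above background, and no lower bound is given. On the arrays of 4 min, which shared a day with those of 16 min, HTA1 did not pass background in Cy5, so no difference within that day is given. On the deposited table of mean log2 ratios the rise was smaller, with 1.24 at 64 min and 1.09 at 128 min.

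HTA2 encodes nearly the same H2A protein. Its log2 ratio in YPD was -1.68, -1.60 and -1.35 at 64 min, against 0.22, 0.33 and 0.10 at 0 min. The groups did not overlap, and the difference was -1.76 (SE 0.19, adjusted p = 2.2e-10), a 3.39-fold lower ratio. HTA2 was called lower at 7 of 8 times, from 8 min on, and at 8 min only 2 arrays had a value. Without YPD replicate 2 the difference at 8 min was -0.19 and was not called. On the same arrays from 32 min on, HTA1 minus HTA2 had a median of 3.24 in YPD. Within 1 day, HTA2 was 0.71 lower at 16 min than at 4 min, as a difference of means with no test.

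HTB1, which encodes H2B and is the neighbour of HTA1, fell early and was nearer its first level by the last time. Its log2 ratio in YPD was -1.01, -0.85 and -1.18 at 16 min, against 0.51, 0.52 and 0.40 at 0 min, a difference of -1.49 (SE 0.19, adjusted p = 2.7e-08). By 128 min it was 0.02, -0.12 and 0.07, with a difference of -0.49 (SE 0.19, adjusted p = 0.035). HTB1 was the single histone gene called lower at all 8 times in YPD. With 4 min in place of 0 min as the baseline, its difference at 128 min was 0.13 (adjusted p = 0.61). Within 1 day the arrays of 16 min minus those of 4 min gave -0.87, and on the deposited table the difference from 0 min at 16 min was -0.85. The calls of HTB1 at 4, 8 and 128 min were each lost when any single YPD replicate was left out.

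HTB2, the other H2B gene, was later. Its log2 ratio in YPD was -2.58, -2.26 and -0.85 at 64 min, against 0.08, 0.02 and 0.10 at 0 min. The third array of 64 min was well above the other 2, yet below all arrays of 0 min. The difference was -1.97 (SE 0.40, adjusted p = 8.0e-05), and HTB2 was called lower from 32 min on, at 5 of 8 times. The call at 32 min was lost without YPD replicate 1 or 2, and that at 96 min without YPD replicate 3 (-1.13, adjusted p = 0.054). Within 1 day, 16 min minus 4 min gave -0.73. HTA2 and HTB2, which are neighbours, differed little from each other from 32 min on, with a median of 0.17 for HTA2 minus HTB2 on the YPD arrays.

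The H3 genes HHT1 and HHT2 had the lowest ratios of the set. HHT1 was -2.78, -2.59 and -2.43 in YPD at 96 min, against -0.38, -0.78 and -0.54 at 0 min. HHT2 was -2.64, -2.71 and -2.20 at 96 min, against -0.27, -0.72 and -0.52 at 0 min. No array of 96 min overlapped those of 0 min for either gene. The differences were -2.04 for HHT1 (SE 0.24, adjusted p = 2.7e-09) and -2.01 for HHT2 (SE 0.23, adjusted p = 1.8e-09), which are 4.10-fold and 4.04-fold lower ratios. Both were called lower at the 6 times from 16 min on. HHT1 minus HHT2 lay between -0.42 and 0.28 on the 27 YPD arrays and had a median of 0.01 from 32 min on. Within 1 day, the arrays of 16 min minus those of 4 min gave -1.02 for HHT1 and -0.89 for HHT2. With the log ratios scaled to a common spread between arrays, neither gene was called at 16 or 32 min (HHT1 at 16 min -0.09), and HHT1 at 96 min was -1.04 (adjusted p = 0.00042). Without YPD replicate 2 the calls of 16 min were lost for both (adjusted p = 0.054 and 0.053).

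The H4 genes HHF1 and HHF2 parted. HHF1 was -1.83, -1.84 and -1.91 in YPD at 128 min, against -0.41, -0.81 and -0.73 at 0 min, a difference of -1.21 (SE 0.26, adjusted p = 0.00016). It was called lower from 32 min on, at 5 of 8 times. With scaling between arrays none of these calls remained, and the difference at 128 min was -0.38 (adjusted p = 0.22). Without YPD replicate 1 the calls at 48 and 96 min were lost. Within 1 day, 16 min minus 4 min gave -0.57 for HHF1 and 0.23 for HHF2. HHF2 was 0.25, 0.54 and 0.48 at 48 min, against -0.26, -0.30 and -0.12 at 0 min. All arrays of 48 min were above those of 0 min, but the difference of 0.65 (SE 0.31, 95% interval 0.03 to 1.27) had an adjusted p of 0.080. It was called with median centring in place of loess (1.04, adjusted p = 0.0036) and with arrays of the first layout alone (adjusted p = 0.0051). HHT2 and HHF2 are neighbours, and HHT2 minus HHF2 was below 0 on all 14 YPD arrays from 32 min on where both had a value, with a median of -2.52. At 0 min this difference had a mean of -0.28 ± 0.23 (SD, n = 3).

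HTZ1, the H2A.Z gene, was not called at any time in YPD, and its lowest adjusted p was 0.079. It was -0.88, -0.85 and -0.45 at 96 min, against -0.38, -0.29 and -0.45 at 0 min, and these arrays overlapped (difference -0.35, 95% interval -0.93 to 0.22). Neither dye was above background for HTZ1 on any YPD array of 0 min, which limits every comparison with that time. Alternatives called it in both directions. At 16 min it was higher with scaling between arrays (0.77, adjusted p = 0.022) and with median centring (0.72, adjusted p = 0.034), at 4 min with scaling (0.91, adjusted p = 0.010) and at 64 min with plain background subtraction (0.98, adjusted p = 0.042). With 4 min as the baseline it was called lower at 96 and 128 min, although HTZ1 did not pass background in Cy5 at 4 min. Its F test over YPD times passed with an adjusted p of 0.026.

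HHO1, the linker histone gene, was called lower in YPD at 32, 64, 96 and 128 min. Its log2 ratio was -0.95, -0.90 and -1.17 at 96 min, against -0.06 and 0.01 on the 2 arrays of 0 min with a value. The difference was -0.98 (SE 0.21, adjusted p = 0.00018), a 1.97-fold lower ratio. Its mean log2 ratio stayed between -0.45 and -1.01 from 32 min on. The call at 64 min was lost without YPD replicate 2 (-0.68, adjusted p = 0.072) and with scaling between arrays (-0.52). On the deposited table the difference from 0 min at 96 min was -0.44.

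**Figure D3:**
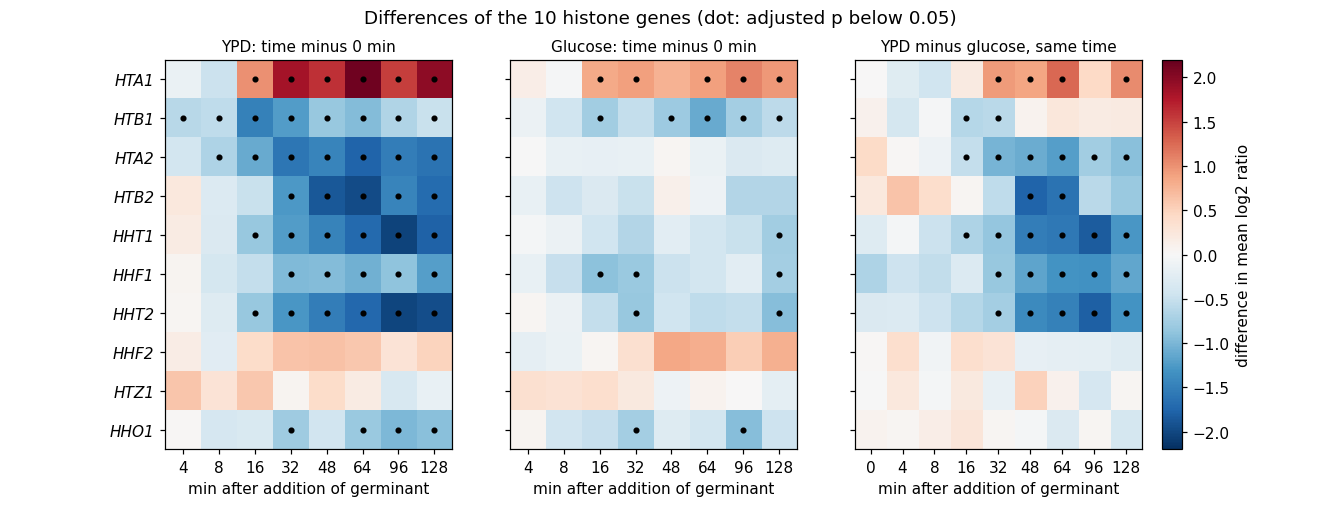
Differences in log2 ratio of each histone gene (rows) by time in min (columns), as YPD time point minus YPD 0 min (left), glucose time point minus glucose 0 min (middle) and YPD minus glucose at the same time (right), with red above 0 and blue below 0. A dot marks a limma adjusted p below 0.05, which in YPD marks 6 rises, all of HTA1, and 41 falls.

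In glucose alone HTA1 rose, HTB1, both H3 genes, HHF1 and HHO1 fell, and HTA2, HTB2, HHF2 and HTZ1 were not called at any time. Of 80 gene-by-time combinations, 5 were called higher than 0 min and 13 lower, where 7.96% and 8.60% of combinations over all genes were. With loess fitted within print-tip groups, 8 were called higher and 5 lower. All 5 calls of a rise again belonged to HTA1. No histone gene was called at 4 or 8 min. Over all genes 0 of 6181 were called at 4 min, and at 8 min 2.54% were called higher and 0.469% lower. By the F test over glucose times, 5 of 10 genes passed (HTA1, HTB1, HHT2, HHF2 and HHO1), against 47.7% of all genes. The glucose baseline rested on 2 arrays of different layouts and days. Of the 18 calls, that of HTB1 at 64 min alone remained under every tested alternative.

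HTA1 in glucose had log2 ratios of 0.97, 1.51 and 0.58 at 96 min, against 0.26 and -0.41 at 0 min. The arrays did not overlap, and the rise was 1.09 (SE 0.29, adjusted p = 0.0039). It was called higher at 16, 32, 64, 96 and 128 min, with means between 0.68 and 1.02 from 16 min on. Without glucose replicate 2 none of these 5 calls remained, and the rise was then 0.55 at 16 min and 0.51 at 96 min (adjusted p = 0.48 and 0.43). A set of 9 glucose arrays of the second layout, 1 per time, was quantified in 1 day (replicate 1 at 0, 4 and 8 min and replicate 3 later). Among them the log2 ratio of HTA1 was 0.26, 0.21 and -0.10 at 0, 4 and 8 min. At 16, 32, 48, 64, 96 and 128 min it was 0.78, 0.71, 0.33, 0.69, 0.58 and 0.88. HTA1 was thus 0.52 higher at 16 min and 0.62 higher at 128 min than at 0 min, and closer to 0 min at the times between.

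HTB1 in glucose was -0.64, -1.18 and -0.37 at 64 min, against 0.45 and 0.31 at 0 min, a difference of -1.11 (SE 0.21, adjusted p = 0.00013), which was -0.59 on the deposited table. It was called lower at 16, 48, 64, 96 and 128 min. Within the set quantified in 1 day the difference at 64 min was -0.82. HTA2 and HTB2, the other H2A and H2B genes, were not called in glucose, and HTA2 at 64 min was -0.39, -0.30 and -0.32, against -0.15 and -0.24 at 0 min.

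HHT2 in glucose was -1.29, -1.48 and -0.62 at 128 min, against -0.30 and -0.08 at 0 min, a difference of -0.94 (SE 0.26, adjusted p = 0.0062). It was called lower at 32 and 128 min, HHT1 at 128 min, and HHF1 at 16, 32 and 128 min with adjusted p values no lower than 0.042. HHT1 was -1.26, -1.45 and -0.46 at 128 min, against -0.53 and -0.05 at 0 min, so its arrays overlapped although it was called (-0.77, adjusted p = 0.029). Within the set of 1 day HHT1 was 0.066 higher at 128 min than at 0 min. HHO1 fell by 0.93 at 96 min (SE 0.23, adjusted p = 0.0021), with -1.12 and -0.98 on 2 arrays, against 0.01 and -0.24 at 0 min, and the fall was 0.38 on the deposited table. HTZ1 was not called in glucose, with a lowest adjusted p of 0.46.

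HHF2 in glucose split by array layout. It was 0.76, 0.96 and 0.09 at 48 min, against -0.32 and -0.17 at 0 min, and the difference of 0.85 (SE 0.34) had an adjusted p of 0.078. From 32 min on it was above 0 on all 10 arrays of the first layout (median 0.79), and on 1 of 5 arrays of the second, which lay between -0.31 and 0.09. With arrays of the first layout alone, which leaves 1 at 0 min, HHF2 was called higher in glucose at 48 min (1.03), 64 min (1.05) and 128 min (1.13). HTB2 also differed by layout, with a median of -0.95 on the second layout and -0.23 on the first from 32 min on. Layout and replicate number cannot be told apart in these glucose times, because the second layout held replicate 3 of every time from 16 min on.

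Between the media, 4 of 90 gene-by-time combinations were called higher in YPD than in glucose and 26 lower, where 4.97% and 7.50% of combinations over all genes were. All YPD arrays were of the first layout and all 11 arrays of the second were of glucose, so layout was partly confounded with medium. Median Cy3 percentiles on the first and second layout were 71.7 and 45.4 for HTA2, and 90.5 and 62.8 for HHF1. They were 93.9 and 93.0 for HTB2, and 46.0 and 65.0 for HHO1. A layout block and arrays of the first layout alone were among the alternatives. With scaling between arrays 0 were called higher and 17 lower. No histone gene was called at 0, 4 or 8 min. Over all genes 0.0325% were called higher and 0.00% lower at 0 min, and 6.77% and 1.95% at 4 min. At 8 min these shares were 2.38% and 0.972%. The 4 higher calls were HTA1 at 32, 48, 64 and 128 min. The lower calls were those of HTA2 (6 times), HHT1 (6), HHT2 (5), HHF1 (5), HTB1 (2) and HTB2 (2). By the F test over 9 times, 7 of 10 genes passed, against 46.5% of all genes, and those that did not were HHF2, HTZ1 and HHO1. The median difference of the 10 genes at 64 min was -0.76, against -0.03 over all genes.

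HTA1 at 64 min was 2.07 and 2.11 in YPD, against 0.93, 0.85 and 0.69 in glucose, a difference of 1.26 (SE 0.29, adjusted p = 0.0012). At 96 min the array of 0.41 brought YPD into the range of glucose, and the difference of 0.44 was not called (adjusted p = 0.26), while without YPD replicate 2 it was 0.97 (adjusted p = 0.0076). With scaling between arrays HTA1 lost its call at all 4 times, and the difference at 64 min was 0.64 (adjusted p = 0.22). On the deposited table it was 0.70. Within the day that held both media, HTA1 was 0.22 higher in YPD at 96 min and 1.04 higher at 128 min.

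HHT1 at 96 min was -2.78, -2.59 and -2.43 in YPD, against -1.07, -0.85 and -0.40 in glucose. HHT2 was -2.64, -2.71 and -2.20 in YPD, against -0.80, -0.96 and -0.38 in glucose. The media did not overlap for either H3 gene, and the differences were -1.83 (SE 0.24, adjusted p = 2.5e-07) and -1.80 (SE 0.23, adjusted p = 1.9e-07). Within the day that held YPD and glucose arrays of 96 min, the difference was -1.64 for HHT1 and -1.64 for HHT2.

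HTA2 at 64 min was -1.68, -1.60 and -1.35 in YPD, against -0.39, -0.30 and -0.32 in glucose, a difference of -1.21 (SE 0.19, adjusted p = 5.2e-06). Within 1 day the difference was -0.72 at 96 min and -0.86 at 128 min. HTB2 at 48 min was -2.18, -1.81 and -1.43 in YPD, against 0.12, -0.03 and -0.23 in glucose, a difference of -1.76 (SE 0.40, adjusted p = 0.0022). HHF1 at 96 min was 1.33 lower in YPD (SE 0.26, adjusted p = 0.00021), and within 1 day the difference was -1.22.

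HHF2, HTZ1 and HHO1 were not called between the media at any time. At 96 min HHO1 differed by 0.04 (95% interval -0.38 to 0.46) and HTZ1 by -0.37 (95% interval -0.95 to 0.20), and at 128 min HHF2 differed by -0.28 (95% interval -0.90 to 0.34). With arrays of the first layout alone, HHF2 at 128 min was 0.71 lower in YPD (adjusted p = 0.031).

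The change from 0 min was also set directly against itself between media, as a test of the difference of differences. It passed in 10 of 80 combinations (2.84% of combinations over all genes did), 6 for HTA2 and 2 each for HHT1 and HHT2. For HTA2 at 64 min the change was -1.76 in YPD and -0.14 in glucose (difference -1.62, SE 0.28, adjusted p = 0.00017). The mean log2 ratio of HTA2 at 0 min, 0.22 in YPD and -0.20 in glucose, enters this difference. All YPD arrays of 0 min, but only 1 of the 2 of glucose, were quantified on the first 2 days, when the HTA2 reference was lower. What this contributed was not tested. HTA1 did not pass at any time, with a lowest adjusted p of 0.061, so this test does not show a larger rise of HTA1 in YPD. The calls of HTA1 between media concern its levels at each time.

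The core genes were compared with HTZ1 and HHO1 on the same arrays, as differences of log2 ratios with no test. From 32 min on, the mean of the core genes was below 0 on all 15 arrays of YPD (median -0.93) and on all 15 of glucose (median -0.26). HTZ1 was above the core mean on all 14 YPD arrays with a value (median difference 0.63) and on 5 of 14 glucose arrays (median -0.06). HTZ1 passed background in Cy3 on 25 of 53 arrays, and on none of the YPD arrays of 96 min, which limits this comparison. HHO1 was above the core mean on 11 of 15 YPD arrays (median 0.05) and on 1 of 12 glucose arrays (median -0.37). The core mean includes HTA1 and HHF2, whose mean ratios were above 0 in every group from 32 min on. Against the core mean without these 2 genes, HTZ1 was above on 14 of 14 YPD arrays (median 1.21) and on 10 of 14 glucose arrays (median 0.26). HHO1 was then above on 15 of 15 YPD arrays (median 0.75) and on 6 of 12 glucose arrays (median 0.00). The place of HHO1 beside the core genes thus depended on these 2 genes. HTZ1 at 0 min lay below the core mean on all 3 YPD arrays, with a mean of -0.22 ± 0.13 (SD, n = 3), and passed background in neither dye there.

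**Figure D4:**
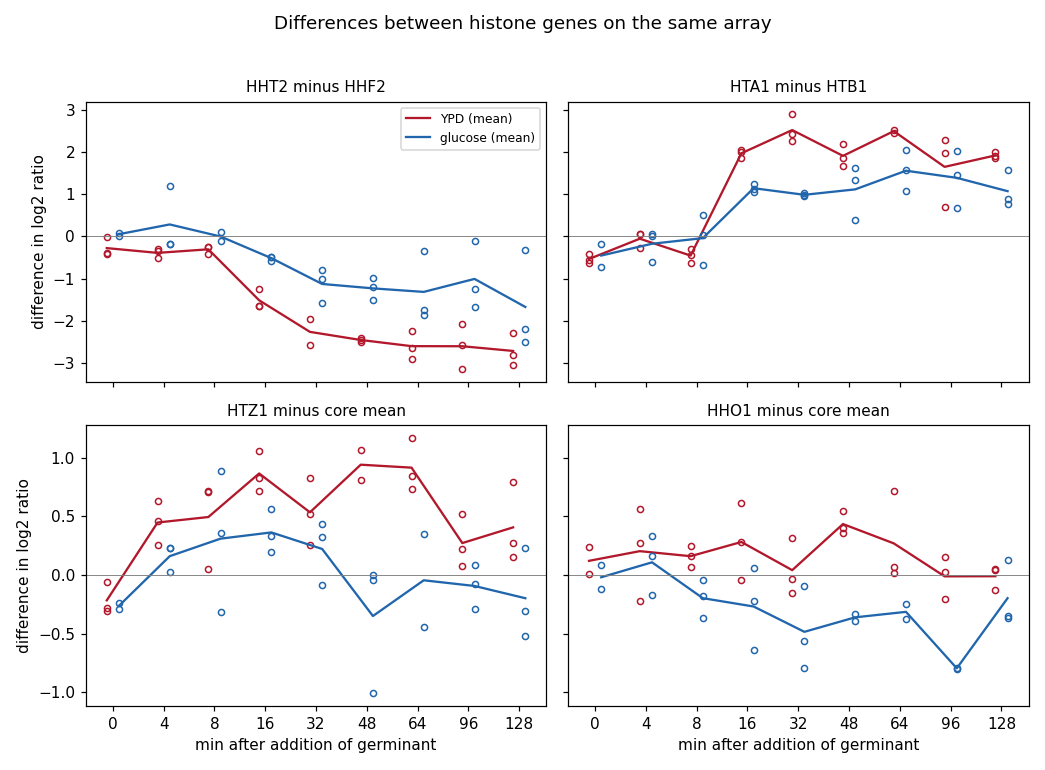
Differences in log2 ratio between histone genes on the same array (y axis) by minutes after addition of the germinant (x axis), for 2 neighbouring pairs and for HTZ1 and HHO1 against the mean of the core genes, with 1 circle per array and lines through the means in YPD (red) and glucose (blue). HTA1 minus HTB1 is above 0 and HHT2 minus HHF2 is below 0 on every array from 32 min on where both genes had a value.

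The 4 neighbouring pairs were compared on the arrays from 32 min on. HTA1 minus HTB1 was above 0 on 14 of 14 YPD arrays from 32 min on (median 2.10) and on 15 of 15 glucose arrays (median 1.07). HHT2 minus HHF2 was below 0 on all of 14 YPD arrays and 15 glucose arrays, with medians of -2.52 and -1.25. HHT1 minus HHF1 was below 0 on 14 of 15 YPD arrays (median -0.51) and on 13 of 15 glucose arrays (median -0.32). HTA2 minus HTB2 had no set sign, above 0 on 8 of 15 arrays in YPD and on 8 of 15 in glucose. At 0 min HTA1 minus HTB1 had a mean of -0.53 ± 0.10 on the 3 arrays of YPD and of -0.45 ± 0.38 on the 2 of glucose (SD). Over the 18 group means, which share the reference design, the profiles of HHT1 and HHT2 correlated with an r of 0.99, those of HTA2 and HTB2 with 0.91 and those of HHT1 and HHF1 with 0.92. The profiles of HTA1 and HTA2 correlated with -0.86, those of HTA1 and HTB1 with -0.53 and those of HHT2 and HHF2 with -0.49. Between the first 2 quantification days and later ones, the reference percentile itself differed in opposite directions for HTA1 (medians 71.4 and 24.4) and HTA2 (34.7 and 71.7). What this contributed to the correlations and to the pair differences at 0 min was not tested.

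Genes that act on histones were read from lists at 64 and 128 min. In YPD 23.0% of all genes were called higher and 28.5% lower at 64 min, and 18.5% and 25.7% at 128 min. In glucose these shares were 11.9% and 13.0% at 64 min, and 11.3% and 14.5% at 128 min. Among 13 regulators of histone genes, none was called higher in YPD than at 0 min at either time, and 3 and 5 were called lower. HPC2, a subunit of the HIR corepressor, fell by 0.68 at 64 min (adjusted p = 0.0019) and HIR2, another subunit, fell by 1.37 in YPD at 128 min (adjusted p = 0.0050) and by 1.10 in glucose (adjusted p = 0.037). Of 14 histone chaperones and assembly factors in YPD, 2 were called higher and 3 lower at 64 min, and 1 higher and 2 lower at 128 min. RLF2, a subunit of the CAF-1 assembly factor, was 0.88 higher at 64 min, and ASF1, an H3 and H4 chaperone, fell by 0.91 at 128 min. CHZ1, a chaperone of H2A.Z with H2B, fell by 1.01 at 64 min. SPT16, a subunit of the FACT chaperone, fell by 0.75 in glucose at 64 min.

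Of 21 members of the SWR1 and INO80 complexes tested in YPD at 64 min, 4 were called higher and 3 lower, and IES6, an INO80 subunit, rose by 1.79 in YPD and by 1.35 in glucose at that time. IES1, also of INO80, fell by 1.22 in YPD. Of 31 genes of the G1/S transition and DNA replication, 6 were called higher and 5 lower in YPD at 64 min, and 1 higher and 5 lower in glucose. POL30, which encodes the replication clamp, fell by 2.50 in YPD and by 1.46 in glucose at 64 min. POL12, a subunit of the DNA polymerase that makes primers, was 1.55 higher in YPD at 128 min. Of 17 histone deacetylases and acetyltransferases, 5 were called higher and 3 lower in YPD at 64 min. SAS2, an H4 acetyltransferase, was 1.35 higher, and EPL1, a subunit of the NuA4 acetyltransferase, was 1.44 higher in glucose. Of 7 other structural proteins of chromatin, 0 were called higher and 1 lower in YPD at 64 min. That gene was ABF2, which encodes the packaging protein of mitochondrial DNA, and it fell by 2.74 in YPD and by 1.58 in glucose. The lists were chosen with results of these data in view, and their counts are given as a description.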

How the data were processed

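Germinating yeast spores were profiled on 53 two-colour spotted arrays in 18 groups. The deposited intensity values of each spot were, per the file headers, read from the images with ImaGene 6.0.1, before any background subtraction or normalization, although the authors name GenePix in their methods. They also deposited 1 table of mean log2 ratios per gene and group, which the authors made with limma and loess, and which served as an alternative. Over the 10 histone genes and 18 groups, its values and the present means had a Pearson r of 0.97, the same sign in 172 of 180 cases and a largest gap of 0.89.

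Spot means were corrected with normexp (offset 50) against the local background median, and log2 Cy5 over Cy3 was normalized by loess within each array. The 620 control spots of 13056 had weight 0 in loess. Spots flagged 1 (by hand) or 3 (poor) were left out, 8.49% to 24.4% per array, and spots flagged 2 (empty) were kept. Spots of a gene were averaged. The 18 groups were fitted together in limma 3.58.1 (lmFit and eBayes, R 4.3.3), with Benjamini-Hochberg adjustment over all genes within a contrast and a threshold of 0.05, two-sided. The scripts were tested on simulated data.

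The median spot was 1.39 to 2.51 times its background in Cy3 and 1.66 to 3.77 times in Cy5, and with 3 arrays per group the number of arrays limits the precision. The histone genes and all gene lists were chosen with earlier results of these data known. The 10 histone genes were named in every group, and from each list only the largest rise and fall at 64 and 128 min among genes past the test. Alternatives changed background correction, normalization, scaling, intensity measure, spot filters, replicates, baseline, samples in the fit, blocks and layout. Replicate numbers came from the files and were not used to pair arrays in the main fit. Promoter, protein and probe sequences were not used here.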

Additional observations from a re-analysis of the deposited data

Results flagged for a closer look

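The change from 0 min differed between YPD and glucose, by a limma test of the difference itself, for 10 combinations of gene and time. HTA2 accounted for 6 of them. Its change at 16 min was -1.11 in YPD and -0.17 in glucose, a difference of -0.93 (adjusted p = 0.0498). At 32 min the difference was -1.43 (adjusted p = 0.0010), and it was -1.51 by 48 min (adjusted p = 0.00063). At 64 min it was largest, at -1.62 (adjusted p = 0.00017). It was -1.19 by 96 min (adjusted p = 0.0090), and -1.34 in the samples of 128 min (adjusted p = 0.0036). The change of HTA2 in glucose lay between -0.33 and 0.05 at these 6 times. Each difference also holds the 0 min means of HTA2, 0.22 in YPD and -0.20 in glucose. The 0 min arrays differed in quantification day between media, and what this contributed was not tested. The tests of 32, 48 and 64 min passed under all tested alternatives, while those of 16, 96 and 128 min did not pass without glucose replicate 1 or without glucose replicate 2.

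The H3 genes gave the other 4. HHT1 changed by -1.72 in YPD and -0.41 in glucose at 64 min (difference -1.30, adjusted p = 0.021), and by -2.04 and -0.48 at 96 min (difference -1.55, adjusted p = 0.0075). HHT2 changed by -1.73 in YPD and -0.56 in glucose at 64 min (difference -1.18, adjusted p = 0.035), and by -2.01 and -0.52 at 96 min (difference -1.49, adjusted p = 0.0081). None of these 4 passed without YPD replicate 1, without glucose replicate 1, with scaling between arrays, or with arrays of the first layout alone.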

How the results depend on the processing

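Of 7443 values recomputed under 24 alternatives, 6991 kept their direction and their side of the threshold, 286 lost a call, 163 gained one and 3 reversed. The deposited table and the comparisons within 1 day, which have no test, are not in these counts. With the deposited log2 ratios, 70 of 250 values moved by more than the spread between arrays. Of the calls, 27 of 47 in YPD, 1 of 18 in glucose and 12 of 30 between media remained under every tested alternative. The 27 include all 6 of HTA1 and those of HTA2 from 16 to 128 min. All YPD arrays of 0 min were quantified on the first 2 days and none from 16 min on was. Alternatives that kept the 0 min baseline in YPD therefore kept the difference in the dormant-spore reference between these days. With 4 min as the baseline, HTA1 did not pass background in Cy5 at 4 min.

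Counts of calls moved by over 1.5 times as follows, and the cause was not tested. With the dormant-spore reference as the baseline, glucose had 9 higher and 37 lower, against 5 and 13. With print-tip loess, glucose had 8 higher and 5 lower. With scale normalization between arrays, YPD minus glucose had 0 higher and 17 lower, against 4 and 26. With the quantification day as a random block (consensus correlation 0.31), glucose had 2 higher and YPD minus glucose had 2 higher. With arrays of the first layout alone, which leaves 1 glucose array of 0 min, YPD had 11 higher, against 6, and glucose 9. With only the groups compared in the fit, YPD had 10 higher and glucose 6 lower. With no background correction, 8 genes passed the F test in glucose, against 5. With the replicate block, glucose had 10 higher. That block also called HHF2 higher in YPD at 48 min (0.65, adjusted p = 0.032) and 64 min, and in glucose at 48 min (1.05, adjusted p = 0.0065), 64, 96 and 128 min. Arrays of the same number had a mean correlation of deviations of 0.084 (0.20 for glucose replicate 3, 0.13 for glucose replicate 2), against -0.040 for other numbers. Single pairs went down to -0.34. The numbers were not used to pair arrays in the main fit, and whether they mark a shared batch was not tested.

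With each replicate left out in turn, YPD had 6 to 10 higher and 32 to 41 lower. Glucose had 0 higher without glucose replicate 2 and 9 without glucose replicate 3, and 3 lower without glucose replicate 1 and 17 without glucose replicate 3. YPD minus glucose had 2 to 4 higher and 19 to 27 lower. The F test passed 8 to 10 genes in YPD, 2 (without glucose replicate 1) to 6 in glucose, and 6 to 8 between media. Without glucose replicate 1 or 2 the lone glucose array of 0 min was assumed to vary like the other groups.

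Reversed values among the tested alternatives were HHT2 (-0.45) and HHF1 (-0.60) in YPD at 4 min with the dormant-spore reference as the baseline and HTB1 in YPD at 128 min (0.13) with 4 min as the baseline. HHT1 in glucose at 128 min was 0.066 within 1 quantification day, a value with no test. The 4 min baseline was chosen after seeing the data. From 16 min on it gave 6 higher and 36 lower in YPD, against 6 and 38, and 7 higher and 12 lower in glucose, against 5 and 13. Signal over background limits HTZ1 in both dyes and HTA1 in the reference.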

Other observations

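Among genes with a value in every group, those whose 18 group means correlated best with the mean of the core histone genes were TMA17 (Pearson r 0.95), HPA2 (0.94), NFS1 (0.94), SOD2 (0.92) and PUT2 (0.92), followed by YBL113C, FMP52, ASP1, YDL124W and RTC2 (0.92 to 0.91). TMA17 encodes an assembly chaperone of the proteasome, NFS1 a mitochondrial cysteine desulfurase, SOD2 the mitochondrial superoxide dismutase and PUT2 an enzyme of proline breakdown. The closest to HTZ1 were PEX8 (0.85), YJR162C (0.84) and URN1 (0.84), and the closest to HHO1 were YGR045C (0.91), ATO2 (0.90) and IMA4 (0.87). For HTA1, chosen after its values were seen, they were RPC31 (0.96), SKT5 (0.95) and RPC11 (0.95), of which RPC31 and RPC11 encode subunits of RNA polymerase III. The group means share the reference RNA, and these correlations are given as a description.

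SPS100 fell by 3.98 in glucose at 64 min and by 4.99 at 128 min, against 1 array with a value at 0 min. NSR1, a nucleolar protein gene on the list for vegetative growth, rose by 2.61 in YPD and by 3.07 in glucose at 64 min.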
